A study of Mus musculus with 6 samples.

Results

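The transcripts of 9 neurotrophin and plasticity genes were examined in the irradiated cortex of mice with intact and with targeted Lgmn, the gene of asparagine endopeptidase (AEP, also called legumain). The genes were the ligands Bdnf and Ntf3, the receptors Ntrk2, Ntrk3, Ngfr and Sort1, and the plasticity genes Vgf, Nptx2 and Homer1. They were chosen by gene symbol. Each of the 9 had a row in both deposited tables, which list 51826 genes, and each was among the 18345 genes tested. The libraries came from 3 cortical samples each of Lgmn+/+ and Lgmn-/- mice. All mice were male Balb/c of 6 to 8 weeks. The cortex was taken 3 days after a single whole-brain X-ray dose of 10 Gy. The libraries are called Lgmn+/+ IR and Lgmn-/- IR. Every animal was irradiated, so each comparison is between genotypes after irradiation, and non-irradiated mice were not analysed here. The Lgmn-/- mice carried floxed Lgmn alleles with Cre, and the methods do not name the promoter that drives Cre. The paper reported that the AEP band was lost in immunoblots of Lgmn-/- cortex. In these counts over the whole gene Lgmn fell without being absent, from 130, 129 and 127 CPM (counts divided by the TMM-scaled library total and given on a common scale) to 83.4, 70.4 and 93.6 CPM (log2 fold change -0.64, adjusted p = 0.0315). Libraries differed beyond genotype, in that replicates 2 and 3 of Lgmn+/+ IR and replicate 1 of Lgmn-/- IR were higher in striatal markers than the other 3 libraries. Blood markers were higher in all Lgmn-/- IR libraries. The values are given where they touch a member. In each list of values below, replicates 1, 2 and 3 of Lgmn+/+ IR come first, followed by replicates 1, 2 and 3 of Lgmn-/- IR.

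Neurotrophins are secreted growth factors of neurons that are made as precursors and cut to their mature form. Mature brain-derived neurotrophic factor (BDNF) signals mainly through the receptor tyrosine kinase TrkB, whereas the precursors bind p75NTR together with sortilin. In the adult cortex BDNF is released in an activity-dependent manner and shapes synapses. Homer1, Nptx2 and Vgf are known to be induced by neuronal activity.

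Nptx2 and Homer1 rose in Lgmn-/- IR, 2.26-fold and 2.08-fold, and they were the members that passed the test. In bulk tissue a change in the share of a cell type and a change in RNA per cell cannot be told apart. Bdnf was 1.70-fold higher, with every Lgmn-/- IR library above every Lgmn+/+ IR library, but its adjusted p was 0.0627. Of the 4 receptors, 0 passed with edgeR, DESeq2 or limma, and 0 had an unadjusted p under 0.05. Of all genes tested, 3.33% passed in either direction and 1.65% passed as higher in Lgmn-/- IR, against 2 of the 9 members. A DEG also needs an absolute log2 fold change over 1. Both Nptx2 and Homer1 met this limit, as did 0.959% of all genes in the same direction. In 3 members, Bdnf, Nptx2 and Homer1, all Lgmn-/- IR libraries lay above all Lgmn+/+ IR libraries, which was also true of 12.4% of all genes tested. The median log2 fold change was 0.53 over the members and -0.01 over all genes tested. Adjusted p-values come from the quasi-likelihood test of edgeR, adjusted by Benjamini-Hochberg over all genes tested.

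The sequence before the transcript start is shown for genes with higher Lgmn-/- IR libraries. The cyclic AMP response element (CRE), the binding sequence of the activity-regulated factor CREB, was searched there. RefSeq promoter windows on GRCm38.p6 cover 250 bases before and 50 bases after each start. They were found for 5 members, namely Bdnf with 7 windows, Ntf3 and Homer1 with 2 each, and Ntrk2 and Ngfr. Ntrk3, Sort1, Vgf and Nptx2 had none. Of the 13 member windows, 2 held the CRE core TGACG on either strand. The core occurred in 20.8% of the 32851 windows of all genes. These 2 windows are printed with that of Pcsk1, which encodes a prohormone convertase and is described with the pathway genes. Capitals mark the core and the full CRE.
Homer1, chr13:93303507-93303806, plus strand: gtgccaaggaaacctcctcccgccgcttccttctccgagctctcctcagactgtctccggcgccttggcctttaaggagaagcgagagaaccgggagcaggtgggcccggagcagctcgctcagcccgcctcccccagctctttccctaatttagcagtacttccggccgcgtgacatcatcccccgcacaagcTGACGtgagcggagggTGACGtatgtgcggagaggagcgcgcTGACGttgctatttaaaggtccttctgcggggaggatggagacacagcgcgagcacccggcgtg
Bdnf, chr2:109692186-109692485, plus strand: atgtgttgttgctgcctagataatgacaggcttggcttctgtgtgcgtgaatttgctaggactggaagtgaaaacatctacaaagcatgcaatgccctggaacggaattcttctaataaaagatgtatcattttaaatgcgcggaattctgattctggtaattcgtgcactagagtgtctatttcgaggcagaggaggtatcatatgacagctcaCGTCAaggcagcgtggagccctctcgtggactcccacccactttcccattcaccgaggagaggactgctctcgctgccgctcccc
Pcsk1, chr13:75089607-75089906, plus strand: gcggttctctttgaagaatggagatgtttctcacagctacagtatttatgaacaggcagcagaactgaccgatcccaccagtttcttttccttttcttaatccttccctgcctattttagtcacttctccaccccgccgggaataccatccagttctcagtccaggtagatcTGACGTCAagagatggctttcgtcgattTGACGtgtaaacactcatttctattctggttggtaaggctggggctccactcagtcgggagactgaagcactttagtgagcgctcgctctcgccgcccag
The Homer1 window held 3 cores in the direction of the gene, which began 56, 40 and 14 bases before the start. In the Bdnf window there was 1 core on the opposite strand, 35 bases before the start, and the other 6 Bdnf windows held none. The Pcsk1 window held a full CRE, TGACGTCA, which contains the core on each strand, and a further core 50 bases before the start. A full CRE stood in 1.79% of all windows and in 0 of the 13 member windows. The AP-1 sequence TGANTCA was in 1 of the 13, a Bdnf window, and in 7.81% of all windows, the EGR sequence GCGTGGGCG in 0 of the 13 and 0.612% of all, and the E-box CANNTG in 12 of the 13 and 72.3% of all. These matches describe letters in the windows, and binding was not measured.

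Levels of different genes were compared by FPKM, which is scaled for transcript length. Vgf, a secreted neuropeptide precursor, had the highest mean in Lgmn+/+ IR at 91.1 ± 51.6 FPKM (SD, n = 3), followed by Sort1 at 74.0 ± 4.27 and Ntrk2 at 71.3 ± 7.84. These 3 overlapped between neighbours and could not be ordered. Homer1 followed at 29.8 ± 1.84 FPKM, separate from its neighbours. Nptx2 at 16.8 ± 0.52 and Ntrk3 at 14.5 ± 1.92 FPKM overlapped. Bdnf, at 4.88 ± 0.55 FPKM, was below all of these and above the lowest pair, Ngfr at 1.19 ± 0.85 and Ntf3 at 0.67 ± 0.43 FPKM, which overlapped. In Lgmn-/- IR the order of the first 7 was kept, Nptx2 at 36.6 ± 6.30 FPKM no longer overlapped Ntrk3 at 17.2 ± 0.39, and Ntf3 at 0.96 ± 0.30 overlapped Ngfr at 0.63 ± 0.27.

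**Figure D1:**
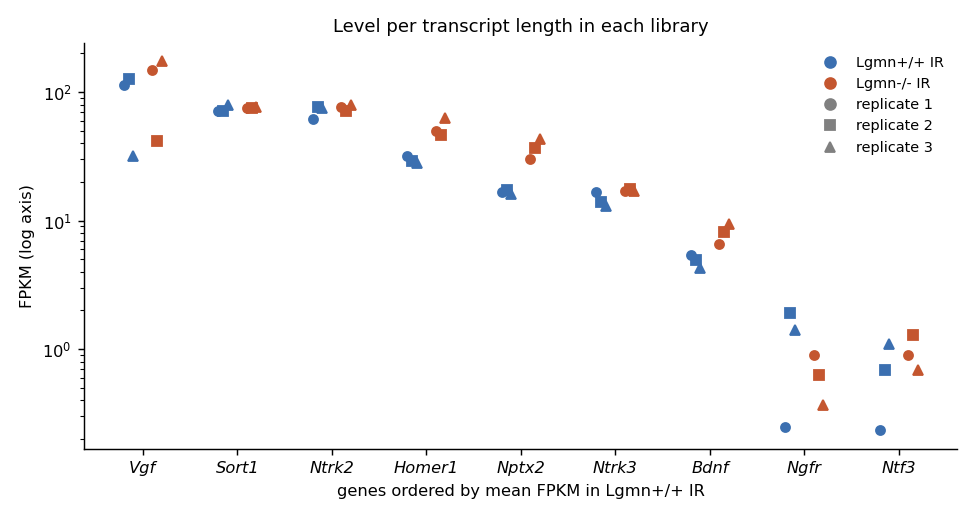
FPKM of the 9 genes on a log axis in each Lgmn+/+ IR (blue) and Lgmn-/- IR (orange) library, with genes ordered by their mean in Lgmn+/+ IR and symbols for replicates. The genes span from below 1 FPKM for Ntf3 to over 100 for Vgf, and Homer1, Nptx2 and Bdnf show orange points above all blue ones.

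Among the ligands, Bdnf (ENSMUSG00000048482, chromosome 2 of GRCm38 from 109674700 to 109727007, plus strand) had 1053, 957 and 896 counts in Lgmn+/+ IR, compared with 1355, 1706 and 2038 in Lgmn-/- IR. Scaled to library size, these were 24.7, 22.4 and 19.7 CPM against 30.5, 36.8 and 46.4 CPM. The lowest Lgmn-/- IR library, replicate 1, stood above the highest Lgmn+/+ IR library, also replicate 1. The means of 22.2 ± 2.49 and 37.9 ± 8.03 CPM (SD, n = 3 each) gave a log2 fold change, as always for Lgmn-/- IR against Lgmn+/+ IR, of 0.77 (standard error 0.17, 95% interval 0.37 to 1.17), with an adjusted p of 0.0627 from edgeR. Bdnf passed with DESeq2 (adjusted p = 0.00208) and without Lgmn-/- IR replicate 1 (log2 fold change 0.91, adjusted p = 0.0494). The adjusted p of the other alternatives ran from 0.064 to 0.205. The gene on the opposite strand within Bdnf, Gm45346, had at most 6 counts in any library.

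Ntf3 encodes neurotrophin-3, the main ligand of TrkC. It lies on chromosome 6 from 126101412 to 126166910 on the minus strand (ENSMUSG00000049107). The counts were 17, 44 and 76 in Lgmn+/+ IR, compared with 63, 89 and 50 in Lgmn-/- IR, and the groups overlapped. The log2 fold change of 0.53 had a 95% interval from -0.61 to 1.67 (adjusted p = 0.607 from edgeR), which covers changes of either sign. It was 0.15 without Lgmn+/+ IR replicate 1 (adjusted p = 0.849), the lowest library, and 1.06 without replicate 3 (adjusted p = 0.372).

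TrkB, the receptor of BDNF, is encoded by Ntrk2 on chromosome 13 from 58806569 to 59133970, plus strand (ENSMUSG00000055254). Its level was 541, 650 and 651 CPM in Lgmn+/+ IR, compared with 686, 607 and 758 CPM in Lgmn-/- IR. Replicate 2 of Lgmn-/- IR fell inside the range of Lgmn+/+ IR. TrkB transcripts differed by 0.15 on the log2 scale (95% interval -0.12 to 0.43, adjusted p = 0.531). These counts sum the full-length receptor and the truncated form that lacks the kinase, which is the main form in astrocytes.

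Ntrk3, the gene of TrkC, lies on chromosome 7 from 78175959 to 78738012 on the minus strand (ENSMUSG00000059146). It had 114, 104 and 110 CPM in Lgmn+/+ IR, compared with 132, 109 and 135 CPM in Lgmn-/- IR, so replicates 1 and 3 of Lgmn-/- IR were high and replicate 2 was within the other group. This gave a log2 fold change of 0.20 (95% interval -0.06 to 0.45, adjusted p = 0.380). The antisense gene Gm9885 had 120 to 233 counts against 4464 to 5925 for Ntrk3. The use of strand in counting is not given in the sources used here, so reads shared by these genes cannot be told apart.

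Sort1 encodes sortilin, the partner of p75NTR for proneurotrophins and a sorting receptor for BDNF (ENSMUSG00000068747, chromosome 3 from 108284082 to 108361511, plus strand). It had 539, 533 and 603 CPM in Lgmn+/+ IR, compared with 578, 561 and 631 CPM in Lgmn-/- IR. The groups overlapped, and the 95% interval of the fold, 0.911 to 1.22, was the narrowest of the members on the log2 scale (adjusted p = 0.691).

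Ngfr, the gene of p75NTR, was the member with a negative log2 fold change, and its 3 highest libraries were those highest in striatal markers. It lies on chromosome 11 from 95568818 to 95587735 on the minus strand (ENSMUSG00000000120). The counts were 41, 310 and 250 in Lgmn+/+ IR, compared with 159, 111 and 67 in Lgmn-/- IR, or 0.96, 7.24 and 5.50 CPM against 3.58, 2.39 and 1.53 CPM. Replicate 1 of Lgmn+/+ IR was the lowest library of all, and replicates 2 and 3 were the highest. The log2 fold change was -0.87 (95% interval -2.42 to 0.68, adjusted p = 0.526). Single libraries moved this value, which was -1.34 without Lgmn+/+ IR replicate 1 (adjusted p = 0.143) and -0.37 without replicate 2 (adjusted p = 0.860).

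In the forebrain p75NTR is known for its expression in the cholinergic neurons of the basal forebrain. The summed level of 5 striatal markers (Drd1, Drd2, Adora2a, Rgs9 and Penk) was 155, 594 and 891 CPM in Lgmn+/+ IR, compared with 873, 165 and 142 CPM in Lgmn-/- IR, and none of them was at 0. The same 3 libraries, replicates 2 and 3 of Lgmn+/+ IR and replicate 1 of Lgmn-/- IR, were high in Ngfr and in the striatal markers. Of 4 cholinergic markers, chosen after their values were seen, Chat ran at 0.98, 6.77 and 8.22 CPM in Lgmn+/+ IR, compared with 6.87, 0.93 and 0.52 CPM in Lgmn-/- IR. The sum of all 4 was 24.4 to 29.7 CPM in the same 3 libraries and 2.30 to 3.24 CPM in the others.

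**Figure D2:**
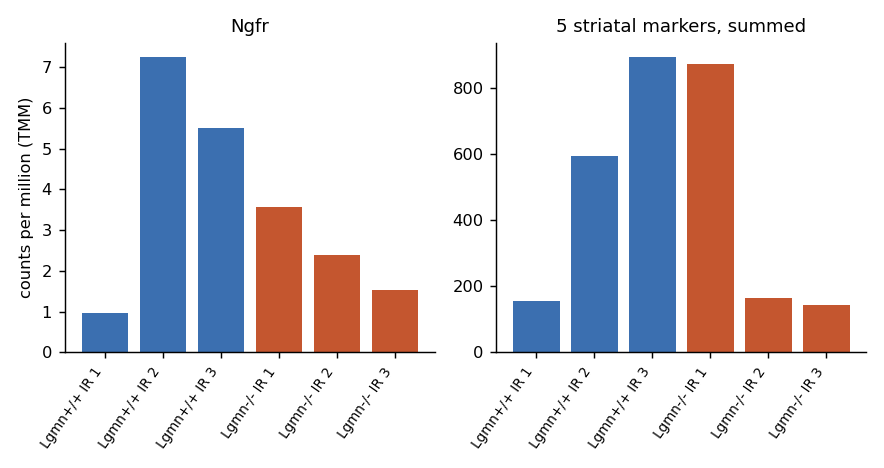
Bars give CPM of Ngfr and of the sum of 5 striatal markers in each library, with Lgmn+/+ IR in blue and Lgmn-/- IR in orange. Replicates 2 and 3 of Lgmn+/+ IR and replicate 1 of Lgmn-/- IR are the 3 highest bars in each panel.

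An alternative fit, added after seeing the data, had a term for the striatal marker class, the 3 libraries high in these markers against the 3 others. In it the log2 fold change of Ngfr was 0.004 (adjusted p = 0.996). Within the 3 libraries high in striatal markers the mean of Ngfr was 6.37 CPM in the 2 Lgmn+/+ IR libraries and 3.58 CPM in the Lgmn-/- IR library. Within the 3 others it was 0.96 CPM in the Lgmn+/+ IR library and 1.96 CPM in the 2 Lgmn-/- IR libraries, the opposite order. Each of these classes, formed after seeing the data, holds a single library of 1 genotype, so neither was tested. The part of tissue composition in the Ngfr values was not tested further. Ntf3 was at 0.90 in this fit (adjusted p = 0.395). Nptx2 and Homer1 still passed (log2 fold changes 1.09 and 1.00, adjusted p = 0.0171 and 0.0238), and Bdnf was at 0.65 (adjusted p = 0.0675).

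Nptx2 encodes neuronal pentraxin 2, a secreted protein that clusters AMPA receptors at excitatory synapses, and it changed most among the members. It lies on chromosome 5 from 144545902 to 144557478 on the plus strand (ENSMUSG00000059991). The counts were 2035, 2077 and 2120 in Lgmn+/+ IR, compared with 3910, 4738 and 5806 in Lgmn-/- IR, or 47.7, 48.5 and 46.6 CPM against 88.0, 102 and 132 CPM. The Lgmn+/+ IR libraries lay within 2 CPM of each other, whereas the Lgmn-/- IR libraries were spread out and all higher. The means of 47.6 ± 0.95 and 108 ± 22.6 CPM (SD, n = 3 each) gave a log2 fold change of 1.17 (standard error 0.15, 95% interval 0.82 to 1.53), or 2.26-fold, with an adjusted p of 0.0095. The call was lost without Lgmn+/+ IR replicate 2 (adjusted p = 0.0537) or replicate 3 (adjusted p = 0.0513), while the log2 fold change remained at 1.19 and 1.16. Without Lgmn-/- IR replicate 3 Nptx2 passed (adjusted p = 0.0130), with a log2 fold change of 0.999, just below the limit for DEGs.

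Homer1 encodes a scaffold of the postsynaptic density that binds group I metabotropic glutamate receptors. It lies on chromosome 13 from 93299635 to 93405129 on the plus strand (ENSMUSG00000007617). The counts were 4991, 4813 and 5020 in Lgmn+/+ IR, compared with 9416, 9419 and 12794 in Lgmn-/- IR, or 117, 112 and 110 CPM against 212, 203 and 292 CPM. As for Nptx2, the Lgmn+/+ IR libraries were close together and replicate 3 of Lgmn-/- IR was the highest. Homer1 was thus higher by 1.06 on the log2 scale (standard error 0.15, 95% interval 0.71 to 1.40), or 2.08-fold, with an adjusted p of 0.0125. Without replicate 1, 2 or 3 of Lgmn+/+ IR the adjusted p was 0.0510, 0.0739 and 0.0632, with log2 fold changes of 1.09, 1.05 and 1.04. Without Lgmn-/- IR replicate 3 Homer1 still passed (adjusted p = 0.00856), but the log2 fold change of 0.87 was below the limit for DEGs.

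Vgf is a granin-like precursor whose peptides are released from dense-core vesicles, and it is induced by neurotrophins (ENSMUSG00000037428, chromosome 5 from 137026392 to 137033351, plus strand). Its 95% interval was the widest of the members. The values were 314, 346 and 80.7 CPM in Lgmn+/+ IR, compared with 426, 109 and 534 CPM in Lgmn-/- IR. Replicate 3 of Lgmn+/+ IR and replicate 2 of Lgmn-/- IR were low, and the other 4 libraries were high. The highest library was 4.29-fold above the lowest in Lgmn+/+ IR and 4.89-fold in Lgmn-/- IR. The log2 fold change of 0.53 had a 95% interval from -1.05 to 2.10 (adjusted p = 0.718). It was 0.11 without Lgmn+/+ IR replicate 3 (adjusted p = 0.948) and 0.96 without Lgmn-/- IR replicate 2 (adjusted p = 0.378). The neighbouring genes did not share the pattern, with Plod3 at 26.0 to 31.6 CPM and Ap1s1 at 192 to 244 CPM over the 6 libraries.

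**Figure D3:**
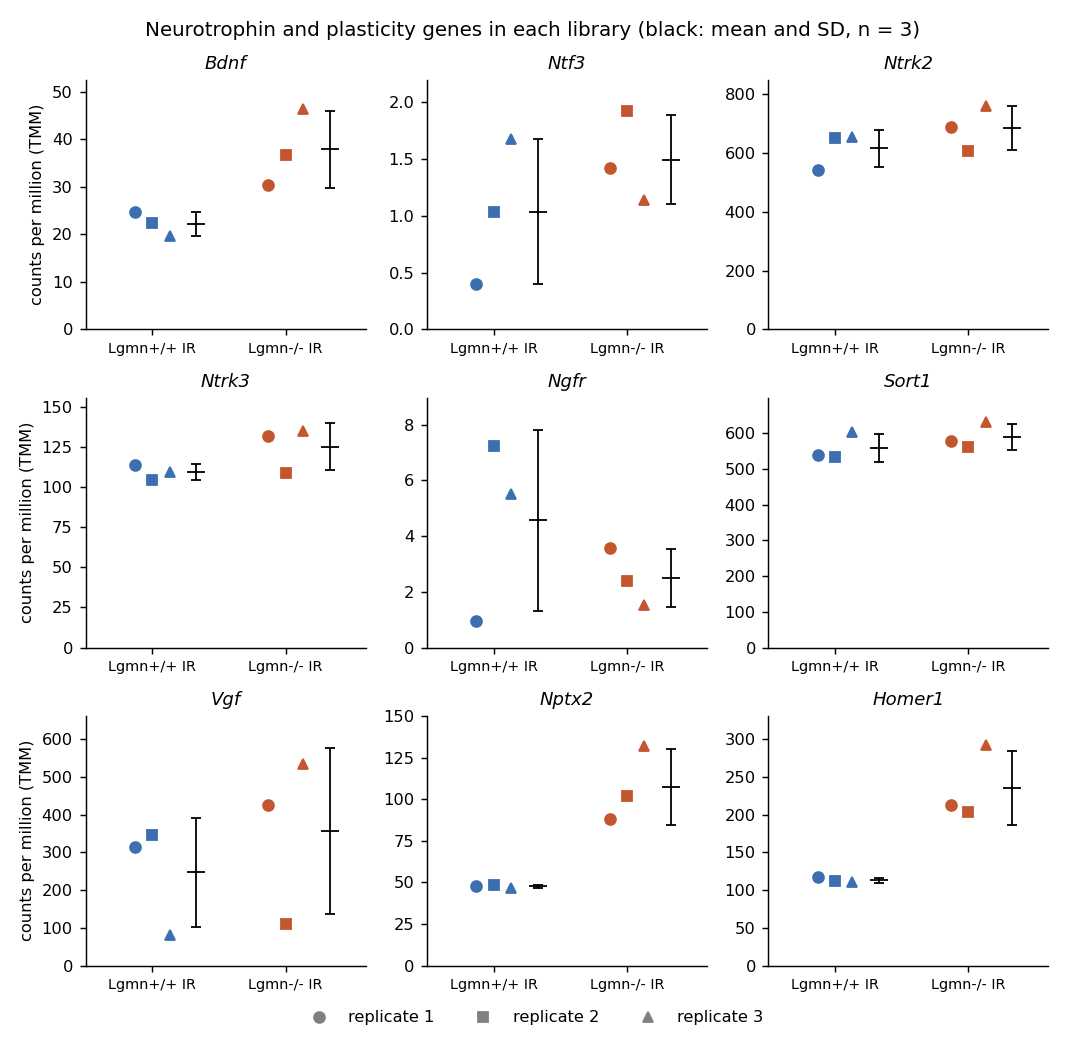
CPM of each of the 9 genes in the 3 Lgmn+/+ IR (blue) and 3 Lgmn-/- IR (orange) libraries, with symbols for replicates and the mean and SD in black. Bdnf, Nptx2 and Homer1 do not overlap between genotypes, Vgf is low in 1 library of each genotype, and Ngfr spans from 0.96 to 7.24 CPM within Lgmn+/+ IR.

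For Homer1 the FPKM gave a smaller difference than the counts, 1.79-fold between the group means of 29.8 ± 1.84 and 53.2 ± 8.84 FPKM. With limma on log2(FPKM + 1) Homer1 passed at a log2 fold change of 0.81 (adjusted p = 0.0208), below the limit for DEGs. The counts of a gene relative to its FPKM give a value that follows the transcript length by which the FPKM was scaled. This measure, here called the apparent transcript length and added after seeing the data, compares libraries and is not a true length. In Homer1 it was 3727, 3944 and 3921 bases in Lgmn+/+ IR, compared with 4211, 4501 and 4304 bases in Lgmn-/- IR. Every Lgmn-/- IR library was above every Lgmn+/+ IR library, and the group means of 3864 ± 119 and 4339 ± 148 bases differed by 12.3%. Among 12625 genes with at least 100 counts and a nonzero FPKM in every library, 7.77% had all Lgmn-/- IR libraries above. All Lgmn-/- IR libraries lay below in 9.18%, and 96.9% had a lower difference than Homer1. Of the 7 members in that set, Ntrk2 also did not overlap (8679 to 8803 bases against 8834 to 8928), with a difference of 1.35%. Nptx2 did not overlap in the other direction, with a difference of -0.0295% between means of 2878 and 2877 bases.

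Homer1 is known to give long forms with a coiled coil, which link receptors to the scaffold, and a short activity-induced form, Homer1a, which lacks it. In GENCODE release M21 the Homer1 transcript Homer1-204 has 5713 exon bases and codes for 186 residues. Transcripts Homer1-201, Homer1-203 and Homer1-202 have 2765, 3052 and 4287 exon bases and code for 354, 366 and 370 residues. The other protein-coding transcripts, Homer1-205 to Homer1-211, have 772 to 2580 exon bases and code for 180 to 233 residues. Apparent length is not on the scale of exon bases, since the only annotated transcript of Nptx2 has 2536 against an apparent 2878 in Lgmn+/+ IR. With 1 value per gene, the share of each Homer1 form could not be computed. The apparent length of Ntrk3 varied most among the members, from 6326 to 8467 bases, and overlapped between genotypes. That of Bdnf stayed between 4605 and 4642 bases and that of Nptx2 between 2877 and 2878.

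**Figure D4:**
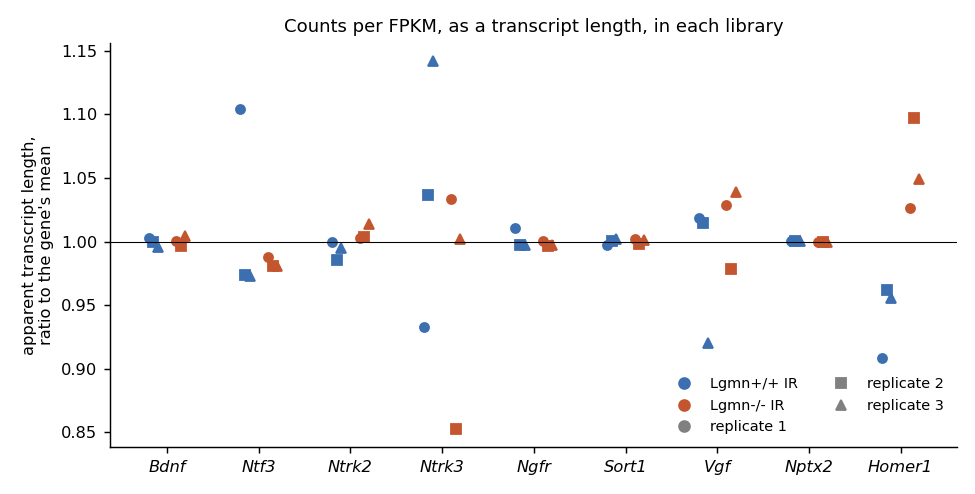
Apparent transcript length of each gene in each library, as a ratio to the gene's mean, with Lgmn+/+ IR in blue, Lgmn-/- IR in orange and symbols for replicates. Homer1 has all orange points above all blue ones, Bdnf, Sort1 and Nptx2 lie close to 1, and Ntrk3 is spread within both genotypes. Ntf3 and Ngfr have fewer than 100 counts in at least 1 library.

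Ratios within a library do not depend on how libraries were scaled. The ratio of Ntrk2 to Ngfr FPKM, TrkB against p75NTR, was 254, 40.5 and 52.9 in Lgmn+/+ IR, compared with 85.2, 112 and 218 in Lgmn-/- IR. All Lgmn-/- IR values lay within the range of Lgmn+/+ IR (exact two-sided permutation test, p = 0.6, n = 3 each). Ntrk2 to Sort1 ran from 0.870 to 1.08 and from 0.935 to 1.03 (exact p = 0.7), and Ntrk2 to Ntrk3 from 3.73 to 5.74 and from 4.01 to 4.67 (exact p = 0.5). The ratio of the ligands, Bdnf to Ntf3, was 23.1, 7.18 and 3.91 in Lgmn+/+ IR, compared with 7.20, 6.39 and 13.5 in Lgmn-/- IR (exact p = 1.0). With 3 against 3 libraries the smallest p this test allows is 0.1, and the Benjamini-Hochberg adjusted p over the 4 ratios was 0.933 for the receptor ratios and 1.0 for the ligands.

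In the other genes of the pathway, 1 of 87 tested passed, Pcsk1, and it rose. This was 1.15% of these genes, against 3.33% of all genes tested. Pcsk1 encodes prohormone convertase 1/3, which cuts precursors in the regulated secretory pathway. It had 32.0, 31.9 and 29.5 CPM in Lgmn+/+ IR, compared with 58.0, 54.3 and 88.8 CPM in Lgmn-/- IR. The groups did not overlap, and replicate 3 of Lgmn-/- IR was again the highest. Pcsk1 rose by 1.11 on the log2 scale (standard error 0.19, 95% interval 0.66 to 1.56), or 2.16-fold (adjusted p = 0.0276). The adjusted p was 0.0871, 0.116 and 0.110 without replicates 1, 2 and 3 of Lgmn+/+ IR, and 0.0504 with the striatal marker class as a term. Without Lgmn-/- IR replicate 3 it was 0.0170, at a log2 fold change of 0.85. Of the other proteases and inhibitors of precursor cleavage, 8 were tested and 0 passed with edgeR, 2 had an unadjusted p under 0.05, and 0 passed with DESeq2 or limma. Among them was Furin, the convertase of the secretory pathway common to all cells, at a log2 fold change of 0.055 (adjusted p = 0.887). Plg, Mmp3 and Mmp7 had too few counts to be tested, and Mmp3 and Mmp7 had 0 counts in all libraries.

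Of 7 other ligands and receptors 0 passed with edgeR, DESeq2 or limma, and 1 had an unadjusted p under 0.05. This was Sorcs3, a receptor of the sortilin family, with 31.4, 36.6 and 40.2 CPM in Lgmn+/+ IR, compared with 42.0, 43.5 and 45.7 CPM in Lgmn-/- IR (log2 fold change 0.28, adjusted p = 0.253). Lingo1, a co-receptor of p75NTR, had 509, 386 and 400 CPM against 437, 486 and 733 CPM (log2 fold change 0.35, adjusted p = 0.418). The median log2 fold change of these 7 genes was 0.26.

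Downstream of the Trk receptors, 0 of 51 adaptor and kinase genes passed with edgeR or limma and 1 with DESeq2. Of all genes tested, 7.76% passed with DESeq2. In edgeR 5 had an unadjusted p under 0.05, with a median log2 fold change of 0.04. The smallest p-values were those of Mapk3, the gene of ERK1, at a log2 fold change of 0.61 (adjusted p = 0.118) and of Sh2b2, an adaptor, at 0.44 (adjusted p = 0.155). Mapk3 had 117, 161 and 174 CPM in Lgmn+/+ IR, compared with 239, 195 and 255 CPM in Lgmn-/- IR, without overlap, and it passed with DESeq2 (adjusted p = 0.0203). Among the 20 p75NTR effectors 0 passed with edgeR, DESeq2 or limma, 2 had an unadjusted p under 0.05, and the median log2 fold change was 0.02. Psen2, a catalytic subunit of gamma-secretase, was at -0.39 (adjusted p = 0.169), and Arhgdia, which encodes a GDP dissociation inhibitor, was at 0.21 (adjusted p = 0.260).

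**Figure D5:**
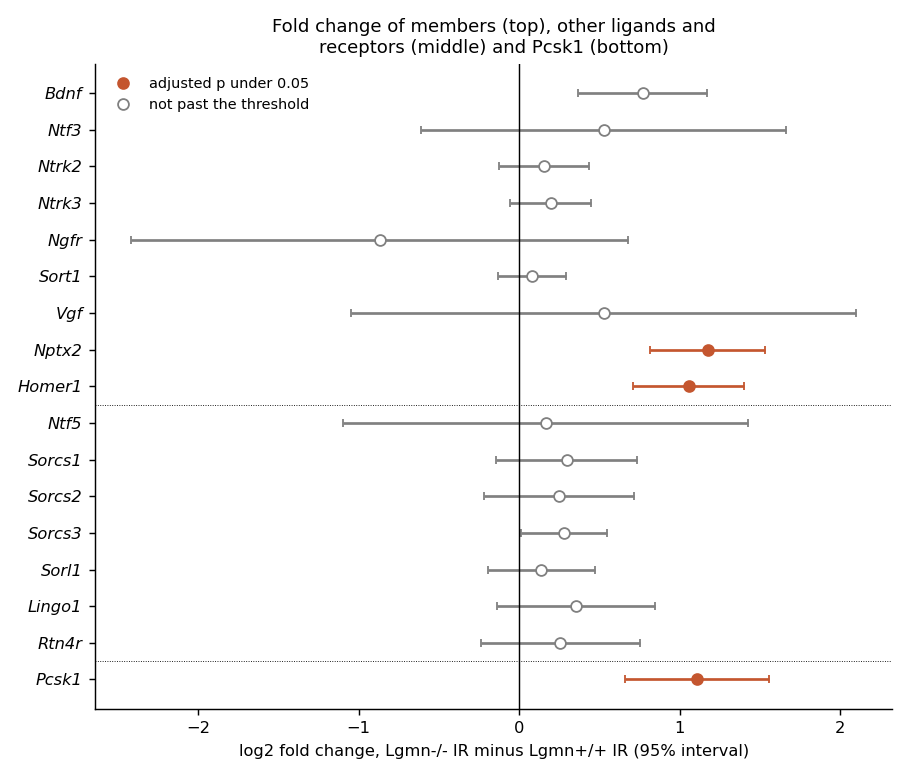
Log2 fold changes of Lgmn-/- IR against Lgmn+/+ IR with 95% intervals for the 9 members, 7 other ligands and receptors, and Pcsk1, with filled points where the adjusted p was under 0.05. Nptx2, Homer1 and Pcsk1 are filled with values between 1.06 and 1.17, and the intervals of Ngfr and Vgf are wide and include 0.

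Homologs and partners of Nptx2, Homer1 and Vgf did not pass. Of 14 tested, 0 passed with edgeR or limma and 1 passed with DESeq2, against 7.76% of all genes tested with DESeq2. In edgeR 5 had an unadjusted p under 0.05 and 11 had positive log2 fold changes. The median was 0.30, against -0.01 over all genes tested. For this and the other lists, the shares of all genes with such a p or sign were not determined. The smallest p-values were those of Chga, the gene of the granule protein chromogranin A, at a log2 fold change of 0.40 (adjusted p = 0.0803, and 0.0147 with DESeq2), and of Nptxr, the membrane-bound pentraxin that partners Nptx2, at 0.43 (adjusted p = 0.150). Nptxr had 1260, 1086 and 1128 CPM in Lgmn+/+ IR, compared with 1344, 1494 and 1838 CPM in Lgmn-/- IR, without overlap. Homer2 and Homer3, the other Homer genes, were at 0.23 and -0.25 (adjusted p = 0.259 and 0.358). Chga lies on chromosome 12 from 102554969 to 102565028, near the targeted gene Lgmn on the same chromosome (102394084 to 102439813). An effect of the targeted allele on nearby genes was not tested.

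Immediate early genes, which neuronal activity and neurotrophins induce within minutes, did not move together. Of 15 tested, 1 fell and 14 did not pass, so 6.67% passed against 3.33% of all genes tested. Positive values were found in 7, and the median log2 fold change was -0.17. Btg2, an antiproliferative gene that is also a p53 target, fell by 0.95 on the log2 scale, from 47.8, 46.3 and 45.1 CPM to 17.9, 28.7 and 25.4 CPM (adjusted p = 0.0313). Without each of the 3 Lgmn+/+ IR libraries its adjusted p was 0.0958 to 0.119, and without Lgmn-/- IR replicate 3 it was 0.103. Egr3, a factor known to act downstream of BDNF, had 47.1, 60.0 and 59.9 CPM in Lgmn+/+ IR, compared with 94.9, 86.8 and 191 CPM in Lgmn-/- IR (log2 fold change 1.16, adjusted p = 0.0990), and Fosb was at 0.85 (adjusted p = 0.103). Fos was at -0.42 (adjusted p = 0.355), Npas4 at -0.29 (adjusted p = 0.524) and Arc at 0.23 (adjusted p = 0.809). With DESeq2 3 of the 15 passed, Btg2, Egr3 and Fosb, against 7.76% of all genes tested. Egr3, Fosb, Fos, Npas4 and Arc were named after their values were seen.

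The genes most like Bdnf over the 6 libraries were found by the root mean square difference of centred log2 CPM. From nearest to farthest they were Lhx2, Mcc, Trmo, Tmem151b and Ppm1h, between 0.0483 and 0.0743 log2 units. The measure includes the difference between genotypes, so log2 fold changes near that of Bdnf follow from the choice of these genes. Mcc and Ppm1h passed the test (log2 fold changes 0.79 and 0.76, adjusted p = 0.0373 and 0.0254), with Mcc at 12.5, 11.3 and 10.3 CPM in Lgmn+/+ IR, compared with 16.8, 19.2 and 23.0 CPM in Lgmn-/- IR. Among the members, Homer1 at 0.186 and Nptx2 at 0.218 were nearest to Bdnf, ranks 172 and 317 of all genes tested. Ngfr at 1.25 was the farthest.

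Total counts ranged from 41874462 to 46829441 per library. Markers of neurons were present in all libraries. The 6 excitatory neuron markers summed to 2873 to 4034 CPM in Lgmn+/+ IR and 2875 to 3846 CPM in Lgmn-/- IR, and 0 of them passed. The 6 inhibitory neuron markers summed to 997 to 1411 and 1131 to 1472 CPM, and 0 passed. Some markers of other cell types moved with genotype. Of 5 oligodendrocyte markers Mog, Mag, Mobp and Cnp fell (sums of all 5, 2038 to 2489 and 1391 to 1413 CPM). Of 6 astrocyte markers 1 passed, Aqp4, which rose, and the log2 fold changes of the 6 ran from -0.17 to 0.55. The sum of these 6 was 1589 to 1773 and 1917 to 2054 CPM. The 5 blood markers Hba-a1, Hba-a2, Hbb-bs, Hbb-bt and Alas2 rose (sums of 7.59 to 15.8 and 234 to 2273 CPM). In blood markers replicate 3 of Lgmn-/- IR was the lowest of its group, and it was the highest in Bdnf, Nptx2, Homer1 and Pcsk1. Summed microglia markers were 179 to 204 and 150 to 165 CPM, with 0 of 6 past the threshold, and 1 of 5 dentate gyrus markers, Lct, fell. With edgeR 0 passed among the markers of endothelial cells (5), mural and meningeal cells (7), choroid plexus (5) or striatum (5). Over the lists of neurons, microglia and these tissues, 6 markers had an unadjusted p under 0.05. With DESeq2 3 passed, Vip, Csf1r and Slco1a4, against 7.76% of all genes tested. The part of these differences in the member values was not tested.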

How the data were processed

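Bulk RNA of 6 cortical samples was analysed from 2 tables deposited by the authors. Per the labels and the study's methods, poly(A) RNA libraries were sequenced on a DNBSEQ-T7, and reads were filtered with Trimmomatic 0.36 and mapped with HISAT2 2.0 to GRCm38. The raw counts per gene were deposited by the authors without normalization. The FPKM deposited by the authors came from StringTie 1.3.3b. The read counter, the annotation and the use of strand are not given in the sources used here. The study's methods name limma for the comparison, and its thresholds were kept.

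The genotypes were compared on these counts in R 4.3.3 with edgeR 4.0.16, using TMM scaling, its filterByExpr filter and its quasi-likelihood F-test, with Benjamini-Hochberg adjusted p-values and no covariate. Standard errors and 95% intervals come from the F statistic. The alternatives were RLE and upper quartile scaling, DESeq2 1.42.0, limma 3.58.1 with voom or on log2(FPKM + 1) and log2(FPKM + 0.1), no filter, at least 10 counts in every library, the replicate number as a block, and each library left out. Apparent length is counts × 10 to the power of 9, divided by total counts and FPKM, centred on each library's median. Positions came from GENCODE release M21, in which 51633 of the 51826 gene IDs have an entry. Pairs of libraries of a genotype had mean chi-square values over genes between 29.0 and 104, far over sampling noise, and were kept as separate samples.

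The members and gene lists were chosen with earlier results of these data known. Beside the members, the text names Lgmn, the genes of each list that passed or else the 2 with the smallest p, the 5 genes most like Bdnf, and, chosen after their values were seen, genes said to be so, Furin, Homer2, Homer3 and the genes that overlap or neighbour a member. Of marker lists, the summed level is given. A few listed genes are not reported here, and the counts and sums leave them out. The p-values of the fits rest on the spread between the 3 libraries of each genotype, moderated across genes. Those of the ratios come from permutation of the libraries.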

Additional observations from a re-analysis of the deposited data

How the results depend on the processing

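The log2 fold changes of 8 of the 9 members kept their sign under all 16 alternatives. That of Ngfr turned to 0.004 with the striatal marker class as a term, an alternative chosen after seeing the data. The number of members past the threshold was 2 of 9 and lay from 0 to 3 with each library left out. The count was 0 with the replicate block. The number of other pathway genes, 1 in the main test, was 2 with DESeq2 (Mapk3 and Pcsk1), 0 without a filter, 0 with the replicate block, 0 with the striatal term, and 0 to 2 with each library left out. The number of homologs, partners and immediate early genes, 1 in the main test, was 4 with DESeq2 (Btg2, Chga, Egr3 and Fosb), 0 without a filter, 0 with the replicate block, and 0 to 1 with each library left out. The log2 difference of the ratio of Bdnf to Ntf3, -0.02 by FPKM, was 0.027 with raw counts and ran from -0.595 to 0.688 with each library left out, that of Ntrk2 to Sort1 ran from -0.015 to 0.138, that of Ntrk2 to Ntrk3 from -0.36 to -0.05, and that of Ntrk2 to Ngfr, 0.65 by FPKM, from 0.14 without Lgmn+/+ IR replicate 2 to 1.46 without replicate 1 (exact permutation p = 1.0 and 0.1). With raw counts the log2 difference was 0.671 for Ntrk2 to Ngfr, 0.074 for Ntrk2 to Sort1 and -0.036 for Ntrk2 to Ntrk3. By FPKM it was 0.056 for Ntrk2 to Sort1 and -0.163 for Ntrk2 to Ntrk3. The cause of these changes was not tested.

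Over all genes 611 passed in the main test (3.33%), against 1423 with DESeq2 (7.76%). The number was 404 of 31094 without a filter and 406 of 16628 with at least 10 counts in every library. With the replicate block it was 150, and with each library left out 223 to 500. The same replicate number marks different animals. The deviations of same-numbered libraries from their group means had correlations of -0.252, -0.046 and -0.028. These values show no pairing by number, but with so few libraries they cannot settle whether same-numbered libraries shared a batch. With the block the adjusted p of Nptx2, Homer1 and Bdnf was 0.0548, 0.0644 and 0.204, and the log2 fold changes were 1.15, 1.04 and 0.75. The low counts of Ntf3 and Ngfr, 17 to 310 per library, limit what can be seen for them.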

Other observations

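The low Vgf libraries, replicate 3 of Lgmn+/+ IR and replicate 2 of Lgmn-/- IR, were compared with the other 4 over all genes, a comparison chosen after seeing the values and given as a description. Of 12626 genes with at least 100 counts in every library, 4 had both libraries more than 2-fold below each of the others, namely Phc3, Btbd6, Vgf and Ctnnd1, and 2 had both more than 2-fold above. Phc3, a Polycomb group gene, had 35.1, 48.3 and 9.74 CPM in Lgmn+/+ IR and 44.9, 7.52 and 42.5 CPM in Lgmn-/- IR. Btbd6 had 60.6, 36.4 and 12.7 CPM against 51.6, 12.7 and 47.1 CPM. The apparent transcript length of Vgf was also lowest in these libraries, at 2530 and 2690 bases against 2791 to 2858 in the other 4. Bdnf, Nptx2 and Homer1 did not share this pattern. No explanation was tested.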
